A study of Homo sapiens with 20 samples.

Results

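The genes described here are 40 genes of autophagy, taken from the table of gene expression by their gene name. All 40 were found among the 60719 genes of the table, and all 40 passed the low-count filter that left 16327 genes to test. Their mRNA was measured by RNA sequencing in 20 libraries of human T lymphoblasts. WT libraries came from Jurkat cells, a T cell leukemia line, and CD47- libraries from JinB8, a somatic mutant of Jurkat cells that lacks the cell surface receptor CD47. Each line gave 10 libraries: 1 from untreated cells at 1 h, and 1 from each of the 3 treatments at each of 1, 3 and 6 h. The treatments were activation on plates carrying antibodies to CD3 and CD28 (CD3+CD28), the same activation together with thrombospondin-1 (CD3+CD28+TSP1), and TSP1 without activation. TSP1 is a secreted ligand of CD47 and was added at 1 μg/mL, and plates were coated with 4 μg/mL of the antibody to CD28. All libraries came from cells in serum-free medium with insulin, transferrin, selenite and hydrocortisone. The CD47- line is a single mutant line, so the loss of CD47 and any other difference between the lines cannot be told apart. Each condition was sequenced once in each line, and the labels do not say whether libraries came from separate cultures, so the p-values measure the spread between these libraries, which may be technical in part. Where the lines were compared with no term for pairs or time, that spread also holds the differences between treatments and time points.

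Autophagy is the process by which a cell encloses part of its own cytoplasm in a double membrane, the autophagosome, and delivers it to the lysosome for breakdown. A kinase complex built on ULK1 or ULK2 starts it, a lipid kinase complex around PIK3C3 marks the membrane, ATG9A, the ATG2 proteins and the WIPI proteins supply and recognize that membrane, and a conjugation system attaches small proteins of the ATG8 family to it. Cargo receptors bind the material to be degraded, and the transcription factors TFEB and TFE3 drive genes of lysosomes. In T cells autophagy is known to supply metabolites during activation and to remove mitochondria as the cells mature. The amounts of mRNA reported here are not a measure of autophagic flux, which depends on proteins and their modification.

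The sum of counts in a library ran from 20483642 to 31737616 in WT cells and from 16107921 to 28525524 in CD47- cells. CD47 itself was present at 317 ± 42.1 CPM (read counts scaled to a common library size, mean ± SD, n = 10) in WT but 147 ± 12.6 CPM in CD47- cells, and every one of the 10 pairs of libraries with like treatment and time had less of it in CD47- cells (log2 fold change −1.10, SE 0.0784, adjusted p = 1.05e-10). All 12 T cell markers examined passed the filter, with a summed level of 1586 to 2183 CPM in WT and 1730 to 2483 CPM in CD47- libraries. The T cell markers TRAC and CD28 differed in opposite directions, without overlap of the lines. CD2 did not overlap either, with 35.1 to 50.8 CPM in WT and 79.5 to 143 CPM in CD47- libraries. WT libraries averaged 185 ± 62.7 CPM of TRAC (mean ± SD, n = 10), against 21.8 ± 5.12 CPM for CD47-, and 45.1 ± 17.0 CPM of CD28, against 230.0 ± 17.4 CPM. Markers of myeloid cells summed to at most 1.62 CPM in WT and 1.76 CPM in CD47- libraries, those of fibroblasts to at most 7.05 and 8.79 CPM, and those of epithelial cells to at most 2.81 and 3.78 CPM. Of the B cell markers, CD79A ran from 33.9 to 53.9 CPM in WT and from 4.15 to 9.97 CPM in CD47- libraries, CD79B from 1.28 to 2.49 CPM and from 1.25 to 3.56 CPM, and MS4A1 and PAX5 stayed at or below 0.352 CPM. The part of these marker differences in the results below was not tested. The CD47- library of CD3+CD28+TSP1 at 3 h stood apart from the others. It had the fewest counts (16107921), the highest scaling factor (1.20, against 0.886 to 1.07 in the others), the largest share of mitochondrial counts (0.663%) and the lowest median correlation with the other libraries of its line (0.968), and the effect of leaving it out is given below.

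The levels of the genes relative to each other were compared per length, as TPM, the share of a library's transcripts after correction for length, within a line. In WT cells GABARAPL2 (52.1 ± 6.13 TPM, mean ± SD, n = 10), GABARAP (51.5 ± 8.72), the mitochondrial receptor BNIP3L (51.1 ± 17.3) and the conjugating enzyme ATG3 (43.2 ± 6.53) had the highest levels. GABARAPL2, GABARAP and BNIP3L differed from each other by less than their SDs. The lowest level was that of ULK2, at 0.134 ± 0.145 TPM, followed by WIPI1 (1.53 ± 1.01), TFEB (1.79 ± 0.465) and ATG2A (2.07 ± 0.390). ULK2, WIPI1, TFEB and ATG2A were also the lowest 4 in CD47- cells, where GABARAP and BNIP3 had the highest mean levels. Among the 4 measured ATG8 genes, whose products become attached to the autophagosome membrane, GABARAP made up 39.9% ± 2.22 of the summed TPM in WT and 46.0% ± 3.82 in CD47- cells, GABARAPL2 40.6% ± 2.36 and 34.6% ± 2.12, MAP1LC3B 15.8% ± 1.61 and 13.3% ± 1.78, and GABARAPL1 3.67% ± 0.739 and 6.13% ± 1.87. The ranges of these shares over the libraries of each line overlapped for each of the 4 genes, and the shares were not tested.

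**Figure D1:**
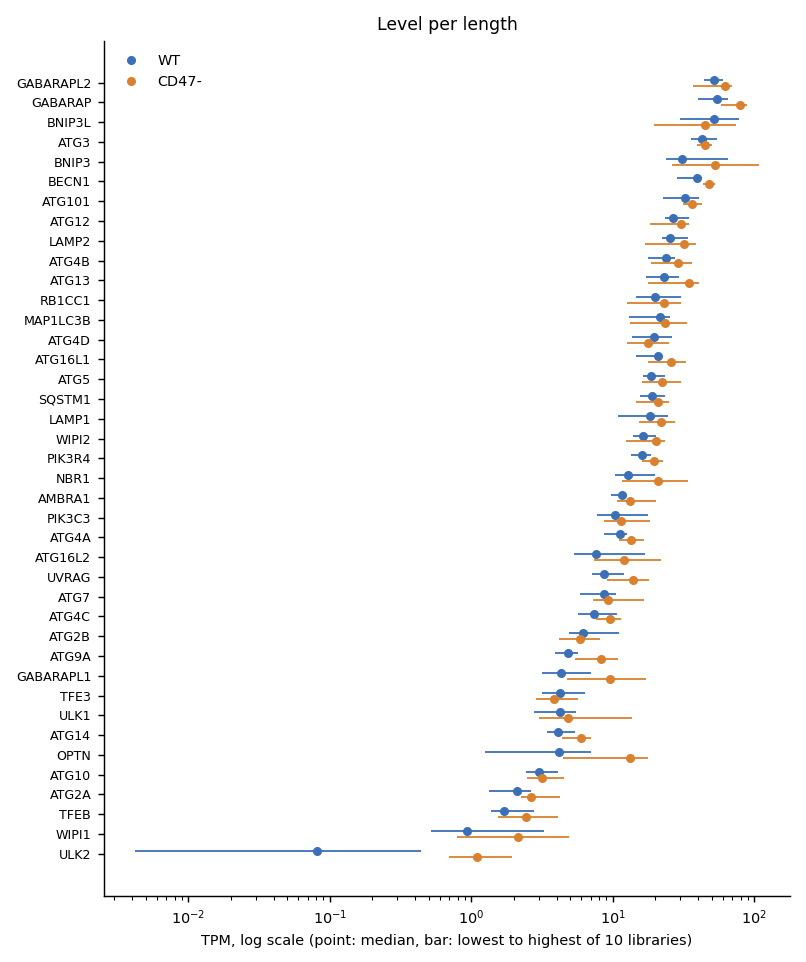
Level of each of the 40 genes in TPM on a log scale, with the median as a point and the lowest to highest of the 10 libraries of a line as a bar, WT in blue and CD47- in orange. ULK2 is at the bottom in both lines, and its bars in the 2 lines lie apart from each other.

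The first comparison asked which autophagy genes differed between the lines over all treatments and time points. Of the 40 genes, 11 were called (edgeR quasi-likelihood test, adjusted p under 0.05), 6 higher and 5 lower in CD47- cells. Over all genes tested, 40.4% were called, 19.8% higher and 20.6% lower. In this model the share of the 40 genes that was called thus lay below that of all genes. With the matched pairs as a term, described below, 27 of the 40 were called against 54.9% of all genes, so that share lay above. Neither difference was tested. The median log2 fold change of the 40 genes was 0.035, against −0.0066 over all genes tested. The genes higher in CD47- cells were ULK2, OPTN, GABARAPL1, ATG9A, UVRAG and ATG2A, and the genes lower were ATG2B, TFE3, ATG4D, ATG3 and ATG12. In bulk samples, fewer cells with a transcript and less of it in each cell cannot be told apart.

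**Figure D2:**
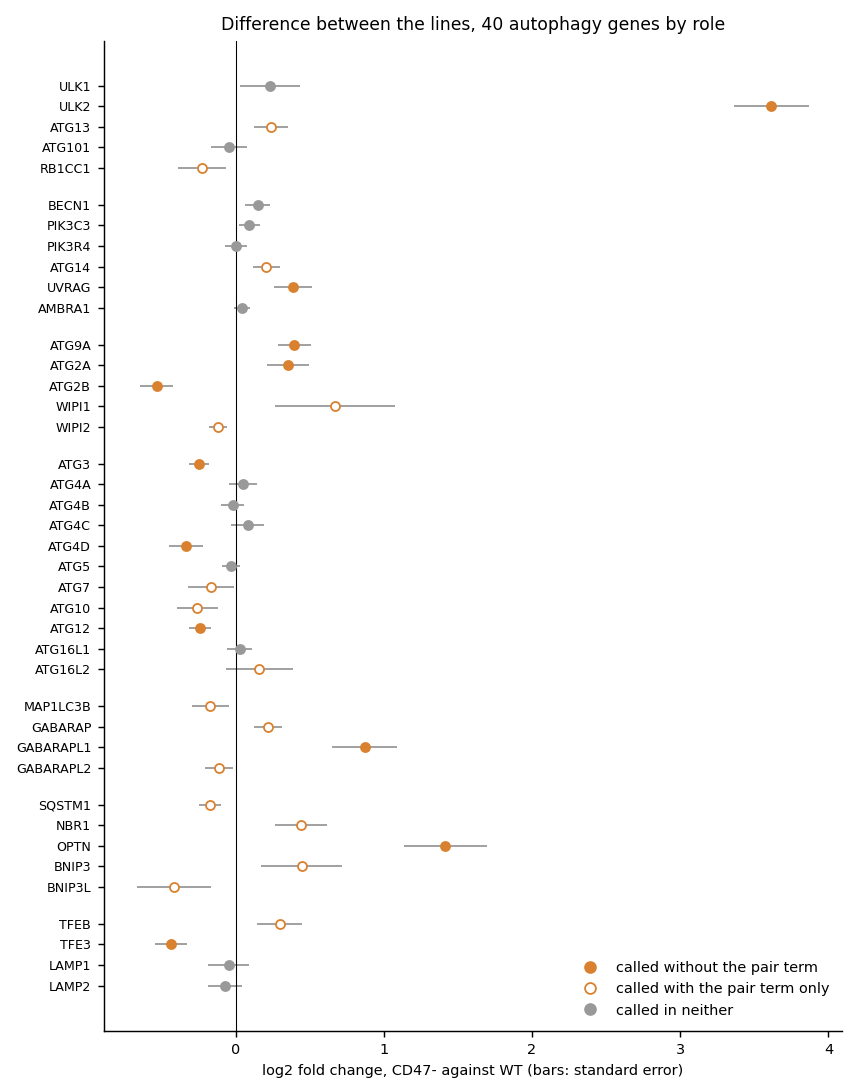
Log2 fold change of each of the 40 genes in CD47- against WT cells with its standard error, grouped by role from the initiation complex at the top to the lysosome at the bottom. Filled orange points are the 11 genes called over the 10 libraries per line, open points the 16 called in addition when the 10 matched pairs were a term of the model, and ULK2 lies far to the right of all others.

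Treatment and time point were the same in each pair of libraries from the 2 lines, and when the pair was added as a replicate block, 27 of the 40 genes were called, 14 higher and 13 lower, against 54.9% of all genes. All 11 genes above were among the 27. Over the 10 pairs, ULK2, OPTN, GABARAPL1, UVRAG, ATG9A and BNIP3 were higher in CD47- cells in every pair, against 15.6% of all genes, and RB1CC1, ATG2B, ATG3, ATG12 and BNIP3L were lower in every pair, against 16.1% of all genes. ULK2 was the only one of the 40 whose ranges over the 10 libraries of each line did not overlap, against 11.5% of all genes. It passed the low-count filter through its CD47- libraries alone, as described below. Within time points, 18 genes were called in the 4 pairs at 1 h, against 49.2% of all genes, 12 in the 3 pairs at 3 h, against 30.3%, and 24 in the 3 pairs at 6 h, against 59.6%. Without the CD47- library of CD3+CD28+TSP1 at 3 h, 15 genes were called over all libraries, against 41.8% of all genes, 10 of the 11 among them, and ATG2A was the gene lost (log2 fold change 0.34, adjusted p = 0.0615). The genes gained were ATG13, ATG14, BECN1, GABARAP and NBR1. Of the genes called neither with nor without it, the difference moved by over 1.5 times for 10, to 0.092 for ULK1, −0.015 for LAMP2, −0.067 for GABARAPL2, 0.10 for ATG4A, 0.15 for ATG4C, 0.067 for ATG16L1, 0.049 for PIK3R4, −0.0007 for ATG101, −0.0011 for ATG4B and −0.0035 for ATG5. Without the pair that holds this library, the block of the 9 other pairs called 26 genes, 15 higher and 11 lower, against 57.7% of all genes, with GABARAPL2 and SQSTM1 lost and BECN1 gained. The 2 other pairs at 3 h called 15, against 35.2%. With a term for time in place of the pairs 28 genes were called, against 58.8% of all genes, and there were 5 in the 6 activated pairs, against 24.8%, and 2 in the 4 unactivated pairs, against 16.4%.

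Of the initiation complex, ULK2 was higher in CD47- cells and the other four genes were not called. ULK2 encodes the paralog of the kinase ULK1 and lies at chr17:19770829-19867936 (GRCh38, minus strand). Its lowest, median and highest levels were 0.0439, 0.394 and 0.725 CPM in WT and 3.94, 4.73 and 6.38 CPM in CD47- libraries, from 1 to 16 counts per library in WT and 99 to 134 counts in CD47- cells. The lowest CD47- library was thus well above the highest WT library. ULK2 passed the low-count filter through its CD47- libraries alone, so the filter depended on the difference being tested. Its p-values between the lines are therefore given as description, as is its place among the genes called. The log2 fold change was 3.61 (SE 0.253, adjusted p = 7.88e-11), and it was 3.35 (adjusted p = 3.78e-07) in the pairs at 1 h, 3.22 (adjusted p = 8.71e-05) at 3 h (3.11 without the library that stood apart) and 4.68 (adjusted p = 3.05e-07) at 6 h. ULK1, the better known of the pair of kinases, stood at 17.3 ± 4.09 CPM in WT and 20.4 ± 9.03 in CD47- cells (mean ± SD, n = 10), a difference of 0.23 (SE 0.204, adjusted p = 0.392), or 0.092 without the library that stood apart. Its difference within each time point is described below. The scaffold subunits gave 0.24 (adjusted p = 0.105) for ATG13, −0.046 (adjusted p = 0.79) for ATG101 and −0.23 (adjusted p = 0.284) for RB1CC1, and with the block ATG13 was higher at 0.22 (adjusted p = 0.0036) and RB1CC1 lower at −0.24 (adjusted p = 6.66e-04).

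Because the difference in ULK2 was the largest, the 250 bases before its start are shown, together with those of GABARAPL1, the ATG8 gene called without the block (RefSeq, GRCh38.p14). Starts are those of RefSeq, and the RefSeq start of GABARAPL1 lies downstream of the gene start in the annotation used for its position below, so its whole window lies within that gene. The ULK2 window is chr17:19867937-19868186 on the minus strand, and the GABARAPL1 window is chr12:10212627-10212876 on the plus strand.
ULK2: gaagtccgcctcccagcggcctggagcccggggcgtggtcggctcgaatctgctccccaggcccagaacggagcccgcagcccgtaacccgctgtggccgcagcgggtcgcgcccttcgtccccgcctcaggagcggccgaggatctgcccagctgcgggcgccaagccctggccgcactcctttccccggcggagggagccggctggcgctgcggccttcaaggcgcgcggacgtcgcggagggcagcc
GABARAPL1: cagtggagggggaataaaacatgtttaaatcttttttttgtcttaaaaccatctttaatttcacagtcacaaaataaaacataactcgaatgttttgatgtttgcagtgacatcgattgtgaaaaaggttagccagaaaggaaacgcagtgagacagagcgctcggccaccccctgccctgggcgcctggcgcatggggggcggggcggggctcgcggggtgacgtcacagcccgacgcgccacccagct
The windows were searched on both strands for CACGTG, the E-box bound by factors such as TFEB and TFE3, for ACGTG, the core of the hypoxia response element, which is contained in every CACGTG, and for TGTTTAC, a core bound by forkhead factors. None of these letters stands in either window, which therefore has no capitals, and this says nothing about binding elsewhere. Of the 35 autophagy genes with a promoter in the RefSeq table, 4 (11.4%) held CACGTG, against 6.49% of the 27305 promoters of the table, 10 (28.6%) held ACGTG, against 18.7%, and 0 held TGTTTAC, against 2.98%.

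In the phosphatidylinositol 3-kinase complex, which makes the lipid that marks the growing membrane, UVRAG was higher in CD47- cells. UVRAG is a subunit that joins the complex in place of ATG14 and is known for its part in endosome traffic. Its lowest, median and highest levels were 27.5, 32.4 and 43.8 CPM in WT and 35.3, 38.9 and 61.5 CPM in CD47- libraries, so the ranges overlapped, and the log2 fold change was 0.39 (SE 0.127, adjusted p = 0.0177). The other five genes were not called. They were the lipid kinase PIK3C3 (0.092, adjusted p = 0.324), its regulatory subunit PIK3R4 (0.0024, adjusted p = 0.984), BECN1 (0.15, adjusted p = 0.171), its partner AMBRA1 (0.042, adjusted p = 0.553) and ATG14 (0.21, adjusted p = 0.0728). With the block ATG14 was called as well, at 0.20 (adjusted p = 0.0144).

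The genes of membrane supply split. The lipid scramblase ATG9A, which travels on the vesicles that seed the autophagosome, had lowest, median and highest levels of 11.1, 14.1 and 17.2 CPM in WT and 14.4, 17.9 and 24.3 CPM in CD47- libraries, so that it was higher by 0.39 (SE 0.112, adjusted p = 0.00684) on the log2 scale. The lipid transfer proteins ATG2A and ATG2B, which are paralogs, went opposite ways. ATG2B, at chr14:96279195-96363341 (GRCh38, minus strand), was at 44.6, 61.2 and 85.5 CPM in WT and 32.4, 43.4 and 50.8 CPM in CD47- libraries, and was lower in CD47- cells at −0.53 (SE 0.113, adjusted p = 5.78e-04). ATG2A was higher by 0.35 (SE 0.140, adjusted p = 0.048), a call close to the threshold. It was lost without any one of 13 of the 20 libraries (adjusted p up to 0.088) and kept without the WT libraries of CD3+CD28+TSP1 at 1 h or of any treatment at 6 h, or the CD47- libraries of CD3+CD28 at 1 h or TSP1 at 1 or 3 h. WIPI1, which binds the lipid made by the kinase complex, averaged 2.56 ± 1.72 CPM in WT libraries and 4.05 ± 2.66 in those of CD47-, a difference of 0.67 (SE 0.406, adjusted p = 0.199) that was not called, while with the block it was higher at 0.65 (adjusted p = 0.00147). WIPI2 was at −0.12 (adjusted p = 0.114) and lower with the block at −0.12 (adjusted p = 0.0274).

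Of the 11 conjugation enzymes, 3 were called lower in CD47- cells, beside 20.6% of all genes. None was called higher without the block, beside 19.8% of all genes. ATG3, the enzyme that transfers ATG8 proteins to lipid, ATG12, the ubiquitin-like partner of ATG5, and the protease ATG4D had log2 fold changes of −0.25 (SE 0.0665, adjusted p = 0.00463), −0.24 (SE 0.0722, adjusted p = 0.00975) and −0.33 (SE 0.116, adjusted p = 0.0245). Without the library that stood apart ATG3 was at −0.19 and still called. The call of ATG4D was lost without the WT library of CD3+CD28 at 6 h (adjusted p = 0.0535). The 8 not called were the proteases ATG4A, ATG4B and ATG4C, ATG5, the activating enzyme ATG7, the transferring enzyme ATG10, ATG16L1 and ATG16L2, with log2 fold changes from −0.26 (ATG10) to 0.16 (ATG16L2). With 1 library left out in turn, ATG16L2 lay between 0.083 and 0.27. With the block, ATG7 was lower at −0.18 (adjusted p = 0.038), ATG10 lower at −0.25 (adjusted p = 0.0276) and ATG16L2 higher at 0.19 (adjusted p = 0.0288).

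Among the ATG8 genes, GABARAPL1 was higher in CD47- cells. It lies at chr12:10212458-10223128 (GRCh38, plus strand), and its lowest, median and highest levels were 6.75, 8.67 and 14.8 CPM in WT and 9.28, 16 and 28.8 CPM in CD47- libraries. Its log2 fold change was 0.87 (SE 0.219, adjusted p = 0.0028), and it was 1.02 (adjusted p = 1.81e-06) in the pairs at 1 h, 0.92 (adjusted p = 0.00329) at 3 h (1.04 without the library that stood apart) and 0.41 (adjusted p = 0.00559) at 6 h. The ranges of the lines overlapped over all libraries but did not overlap within a time point. GABARAP was at 0.22 (adjusted p = 0.0751), GABARAPL2 at −0.11 (adjusted p = 0.346) and −0.067 without the library that stood apart, and MAP1LC3B, which encodes the LC3B protein used as a marker of autophagosomes, at −0.17 (adjusted p = 0.305). With the block GABARAP was higher at 0.23 (adjusted p = 0.0221), and GABARAPL2 (−0.12, adjusted p = 0.0375) and MAP1LC3B (−0.16, adjusted p = 0.00851) were lower. Reads of GABARAPL1 and MAP1LC3B can be shared with the near-identical copies GABARAPL3 and MAP1LC3B2, so these values are less certain, as are those of BNIP3, which has pseudogenes.

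OPTN was the only cargo receptor called between the lines. OPTN encodes optineurin, which binds ubiquitin on damaged mitochondria and bacteria, and lies at chr10:13099449-13138308 (GRCh38, plus strand). Its lowest, median and highest levels were 4.35, 13.7 and 19.1 CPM in WT and 15.6, 35.5 and 48.2 CPM in CD47- libraries. Although the ranges overlapped over all libraries, each CD47- library was above each WT library of the same time point. Its log2 fold change was 1.41 (SE 0.281, adjusted p = 2.96e-04), and 1.41 (adjusted p = 4.88e-08) at 1 h, 1.26 (adjusted p = 3.05e-04) at 3 h (1.38 without the library that stood apart) and 1.74 (adjusted p = 6.87e-08) at 6 h. The receptors SQSTM1 (−0.17, adjusted p = 0.0632) and NBR1 (0.44, adjusted p = 0.0521) bind ubiquitinated protein, and BNIP3 (0.44, adjusted p = 0.203) and BNIP3L (−0.42, adjusted p = 0.193) sit on the outer membrane of mitochondria. With the block these 4 genes were called too, BNIP3 higher at 0.40 (adjusted p = 1.23e-04), NBR1 higher at 0.38 (adjusted p = 0.00303), BNIP3L lower at −0.49 (adjusted p = 3.87e-05) and SQSTM1 lower at −0.18 (adjusted p = 0.0326). The paralogs BNIP3 and BNIP3L thus differed in opposite directions in each of the 10 pairs.

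Of the lysosome genes and their regulators, TFE3 was lower in CD47- cells, at 12.6, 13.8 and 20.3 CPM (lowest, median and highest) in WT and 9.28, 11.0 and 13.4 CPM in CD47- libraries, a change of −0.44 (SE 0.108, adjusted p = 0.00219). Its relative TFEB was not called at 0.30 (adjusted p = 0.129), and with the block it was higher at 0.28 (adjusted p = 0.0207). LAMP1 and LAMP2, the main glycoproteins of the lysosome membrane, were at −0.047 (adjusted p = 0.818) and −0.07 (adjusted p = 0.66) and were called with neither model. Without the library that stood apart LAMP2 was at −0.015.

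**Figure D3:**
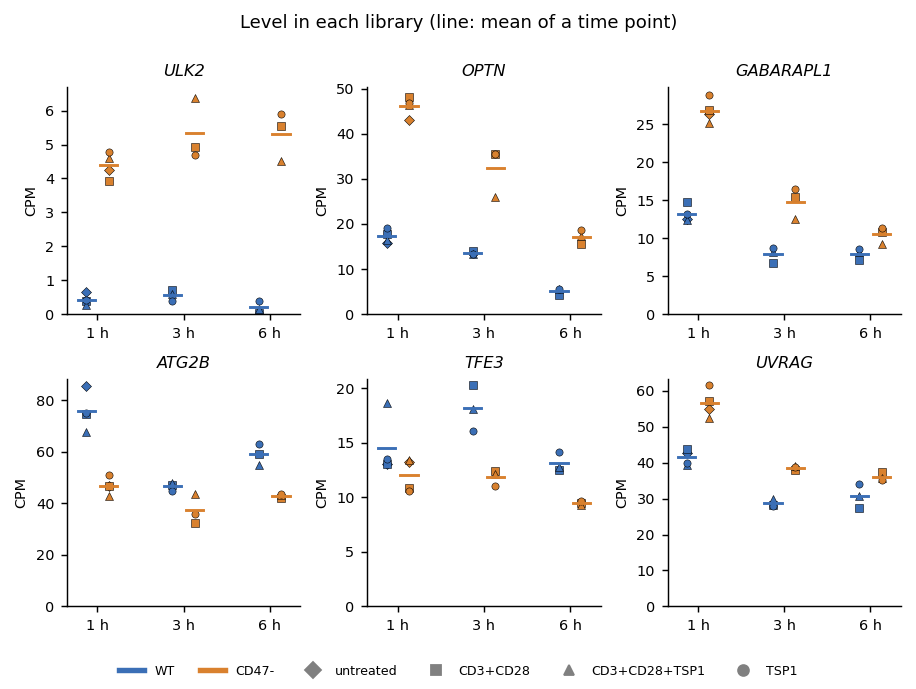
CPM of ULK2, OPTN, GABARAPL1, ATG2B, TFE3 and UVRAG in each of the 20 libraries by time point, with WT in blue, CD47- in orange, the treatment as the symbol and the mean of a time point as a bar. ULK2 is near 0 in every WT library and between 3.94 and 6.38 CPM in CD47- libraries, and OPTN and GABARAPL1 are lower at 6 h than at 1 h in both lines and higher in CD47- cells at each time point.

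Other genes of the pathway were followed in lists that do not hold the 40. Of the genes of fusion with lysosomes, 8 of 19 were called between the lines, 7 higher and 1 lower, with the vesicle fusion protein VAMP8 the largest at 1.46 (adjusted p = 2.11e-06) and VPS11 (0.43), VPS16 (0.37) and STX7 (−0.32) after it. Of the lysosomal enzymes, membrane proteins and proton pump subunits, 21 of 44 were called, 14 higher and 7 lower. The sulfatase SGSH and the protease CTSB (1.10) were highest and the proton pump subunit ATP6V0A1 (−0.52) lowest. SGSH had only 7 to 20 counts per library in WT and 20 to 54 counts in CD47- cells. Not all its WT libraries reached the minimum count of 10, so its passing the low-count filter depended on its CD47- libraries. Its place among these calls is therefore given as description, as for ULK2. Other autophagosome genes gave 9 of 16 called, 5 higher and 4 lower, among them ATG9B (0.81) and BCL2 (−0.77), whose product binds Beclin 1. Other cargo receptors gave 9 of 20, 6 higher and 3 lower, with RETREG1, a receptor for the endoplasmic reticulum, lower at −1.61 (adjusted p = 2.10e-12) and FUNDC1, a mitochondrial receptor, lower at −0.69. Genes of mTORC1 and AMPK control, the nutrient and energy sensors upstream of the ULK kinases, gave 13 of 38, 6 higher and 7 lower, from 0.69 for the AMPK subunit PRKAB1 to −1.05 for SESN3. Of 10 other transcriptional regulators of the pathway 5 were called, 1 higher (FOXO3, 0.28) and 4 lower, including FOXO4 (−0.54). These shares stand beside 40.4% of all genes. With the block the calls of the 6 lists were all kept, and those of mTORC1 and AMPK control went from 13 to 23 of 38 (12 higher, 11 lower), beside 54.9% of all genes.

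Isoforms of the 40 genes were compared in the same way. Of 181 isoforms that passed the filter, 17 were called between the lines, 12 higher and 5 lower, against 15.1% of all isoforms. The largest isoform difference was that of ULK2-202, which held 81.7% of the ULK2 counts in WT and 89.6% in CD47- cells and had a log2 fold change of 3.85 (adjusted p = 2.20e-09). ULK2 counts summed to 92 over the WT libraries and 1178 over the CD47- libraries, through which alone the gene passed its filter. This isoform value is therefore given as description. OPTN-205 (1.66), OPTN-204 (1.33) and GABARAPL1-201 (1.00) were higher, and ATG3-202 (−0.67) and ATG2B-202 (−0.51) lower. With the block 26 isoforms were called, against 19.9% of all isoforms, and 16 of the 17 were among them, BNIP3-203 being lost (adjusted p = 0.054). Without the library that stood apart 18 were called, 15 of the 17 among them, against 15.6%. Whether the isoforms of a gene changed by unequal amounts was tested for the 38 genes with at least 2 isoforms that passed. The test called 0 of the 38, against 2.32% of the genes tested, and 0 had an unadjusted p under 0.05, against 9.02%, while limma voom called 1, ATG3, against 11.4%.

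The next comparisons followed the genes over time, in a model that used the treatments as repeats of a time point. Cells of 3 and 6 h were all treated, so time in culture and time under treatment cannot be told apart. At 6 h against 1 h, 25 of the 40 genes were called in WT cells, against 50.5% of all genes, and 26 in CD47- cells, against 53.0%. Most of them fell: 19 fell and 6 rose in WT cells, where 24.8% of all genes fell and 25.7% rose, and 19 fell and 7 rose in CD47- cells, where 27.0% of all genes fell and 26.0% rose. The median log2 fold change of the 40 genes was −0.21 in WT and −0.24 in CD47- cells, against −0.0031 and −0.0034 over all genes. In both lines 16 genes fell and 5 rose, and no share of all genes called alike in both lines is given here for comparison. At 3 h against 1 h, 22 genes were called in WT cells (18 fell and 4 rose), against 34.3% of all genes (17.4% fell and 16.9% rose), and 25 in CD47- cells (20 fell and 5 rose), against 38.0% (20.1% fell and 18.0% rose). Without the CD47- library of CD3+CD28+TSP1 at 3 h, 22 genes were called in CD47- cells at 3 h, against 37.4% of all genes, and 29 at 6 h, against 58.9%, and the calls of ATG12, ATG16L1, ATG4C, ATG7 and GABARAPL2 at 3 h were lost. The comparisons at 3 and 6 h of a line share its libraries at 1 h.

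**Figure D4:**
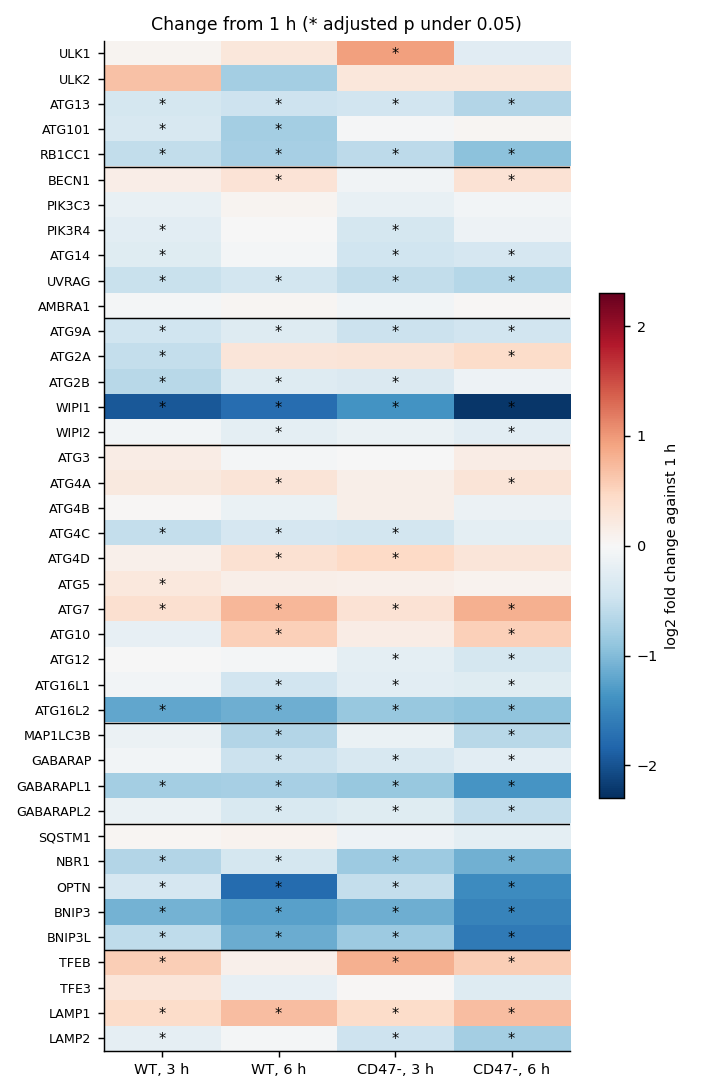
Log2 fold change from 1 h of each of the 40 genes at 3 and 6 h in each line, blue for lower and red for higher, with an asterisk where the adjusted p was under 0.05 and lines between the roles. The ATG8 genes and 4 of the 5 cargo receptors are blue at 6 h in both lines, and ATG7, ATG10 and LAMP1 are red.

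Of the 5 cargo receptors, 4 were called lower in each line at 6 h, beside 24.8% of all genes in WT and 27.0% in CD47- cells. BNIP3 had 98.6, 108, 113 and 107 CPM in the 4 WT libraries at 1 h (here and below in the order untreated, CD3+CD28, CD3+CD28+TSP1 and TSP1), 55.2, 50.3 and 47.9 CPM at 3 h and 46.8, 44.6 and 46.4 CPM at 6 h. In CD47- cells it had 153, 150.4, 150.0 and 154 CPM at 1 h, 72.7, 57.1 and 80.6 CPM at 3 h and 50.2, 51.4 and 54.9 CPM at 6 h. Each library at 3 or 6 h was below each library at 1 h of its line, and the change at 6 h was −1.25 (SE 0.0842, adjusted p = 5.51e-08) in WT and −1.54 (SE 0.0843, adjusted p = 8.46e-09) in CD47- cells. OPTN lay between 15.8 and 19.1 CPM at 1 h and between 4.35 and 5.65 CPM at 6 h in WT cells. In CD47- cells it lay between 43.1 and 48.2 CPM at 1 h and between 15.6 and 18.6 CPM at 6 h, and the log2 fold changes were −1.78 (SE 0.128, adjusted p = 9.93e-08) and −1.45 (SE 0.116, adjusted p = 1.93e-07). Most of its fall came after 3 h, when it had changed by −0.39 in WT and −0.55 in CD47- cells. The call at 3 h in WT cells was lost without any one of 4 libraries (adjusted p up to 0.111). BNIP3L fell by 1.15 on the log2 scale in WT and by 1.63 in CD47- cells, with lowest, median and highest levels of 109.7, 167 and 259 CPM in WT and 64.7, 129.7 and 210.4 CPM in CD47- libraries. NBR1 fell by 0.41 and 1.10, and SQSTM1 was not called in either line (0.086 and −0.22).

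All 4 ATG8 genes were called lower in each line at 6 h, beside 24.8% of all genes in WT and 27.0% in CD47- cells. The share of all genes lower in both lines is not given here. MAP1LC3B changed by −0.67 (SE 0.0860, adjusted p = 1.85e-05) in WT and −0.64 (SE 0.0864, adjusted p = 2.81e-05) in CD47- cells. It lay between 51.5 and 56.5 CPM at 1 h and between 31.2 and 36.9 CPM at 6 h in WT cells, and between 45.6 and 51.8 CPM at 1 h and between 30.5 and 32.2 CPM at 6 h in CD47- cells. At 3 h it was not called in either line (−0.13 and −0.16). GABARAPL1 had already fallen at 3 h, by 0.78 in WT and 0.87 in CD47- cells on the log2 scale, and at 6 h the falls were 0.76 and 1.36. GABARAP (−0.49 and −0.25) and GABARAPL2 (−0.36 and −0.54) changed less, and the call of GABARAP in CD47- cells was lost without any one of 7 libraries (adjusted p up to 0.202). The lowest, median and highest levels of GABARAPL2 were 49.0, 58.5 and 67.4 CPM in WT and 42.0, 56.2 and 64.9 CPM in CD47- libraries.

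In membrane supply, WIPI1 fell most of the 40 genes in CD47- cells. It had 4.72, 4.68, 4.69 and 4.08 CPM at 1 h and 1.63, 1.11 and 1.28 CPM at 6 h in WT cells, and 7.37, 6.01, 7.80 and 6.93 CPM at 1 h and 1.45, 1.34 and 1.58 CPM at 6 h in CD47- cells. The groups did not overlap in either line, and the changes at 6 h were −1.76 (SE 0.178, adjusted p = 2.20e-06) and −2.24 (SE 0.175, adjusted p = 1.65e-07). At 3 h it had already fallen by 1.96 and 1.38 on the log2 scale. ATG9A fell by 0.29 and 0.44 and WIPI2 by 0.23 and 0.23 on the log2 scale. ATG2B fell by 0.63 at 3 h and 0.30 at 6 h in WT cells and by 0.33 at 3 h in CD47- cells, where its value at 6 h was −0.12 (adjusted p = 0.312). ATG2A, at 7.85, 11.2 and 15.9 CPM in WT and 10.6, 15.8 and 18.7 CPM in CD47- libraries (lowest, median and highest), fell by 0.54 at 3 h in WT cells and rose by 0.43 at 6 h in CD47- cells. Of these calls, that of ATG9A in WT cells at 6 h was lost without the library of CD3+CD28+TSP1 at 6 h (adjusted p = 0.109), that of WIPI2 in CD47- cells without the library of CD3+CD28+TSP1 at 1 h (adjusted p = 0.0535) and that of ATG2A in CD47- cells without the library of CD3+CD28 at 1 h or TSP1 at 6 h (adjusted p up to 0.0698). Those of ATG2B in WT cells at 6 h and in CD47- cells at 3 h were lost without any one of 4 libraries (adjusted p up to 0.0873) and 4 libraries (adjusted p up to 0.101).

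The initiation and lipid kinase complexes fell in part. RB1CC1, the large scaffold of the initiation complex, had lowest, median and highest levels of 102, 123 and 188 CPM in WT and 79.6, 109 and 167 CPM in CD47- libraries and changed at 6 h by −0.76 (SE 0.0591, adjusted p = 1.97e-07) and −0.94 (SE 0.0595, adjusted p = 2.47e-08). ATG13, at 60.5, 66.1 and 92.3 CPM in WT and 61.8, 82.4 and 106 CPM in CD47- libraries, changed by −0.47 and −0.67, and UVRAG by −0.42 and −0.66. These 3 genes had also fallen at 3 h in both lines. BECN1, which holds the lipid kinase complex together, rose at 6 h in both lines, by 0.32 and 0.33. ATG14 fell at 3 h in both lines, by 0.29 and 0.45, and at 6 h by 0.39 in CD47- cells, with −0.046 (adjusted p = 0.684) in WT cells. PIK3R4 fell at 3 h alone, by 0.24 in WT and 0.41 in CD47- cells. In WT cells the call of BECN1 at 6 h was lost without the library of CD3+CD28+TSP1 at 1 h (adjusted p = 0.0632), that of ATG14 at 3 h without any one of 4 libraries (adjusted p up to 0.174) and that of PIK3R4 at 3 h without any one of 3 libraries (adjusted p up to 0.0994). Without the WT library of TSP1 at 1 h, ATG14 was at −0.19 in WT cells at 3 h. PIK3C3, AMBRA1 and ULK2 were not called at either time point in either line. ULK2 was at −0.79 (adjusted p = 0.236) in WT cells at 6 h, with an SE of 0.532 from its few counts, and at 0.26 (adjusted p = 0.43) in CD47- cells.

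The conjugation enzymes moved both ways. ATG7, which activates the ubiquitin-like proteins, rose in both lines. It had 15.5, 15.7, 14.4 and 13.1 CPM at 1 h and 26.3, 23.6 and 23.2 CPM at 6 h in WT cells, and 12.1, 13.3, 11.9 and 13.4 CPM at 1 h and 22.6, 22.7 and 22.5 CPM at 6 h in CD47- cells, changes of 0.76 (SE 0.115, adjusted p = 8.78e-05) and 0.81 (SE 0.116, adjusted p = 4.31e-05) without overlap of the groups. ATG10, at 4.59, 5.72 and 8.61 CPM in WT and 4.17, 5.11 and 7.12 CPM in CD47- libraries, rose by 0.54 and 0.55, and ATG4A by 0.29 and 0.30. The call of ATG4A in WT cells was lost without any one of 12 libraries, with adjusted p up to 0.271. Without the WT library of TSP1 at 6 h, ATG4A was at 0.18 in WT cells. ATG16L2, a relative of the scaffold ATG16L1, fell by 1.13 and 0.92 on the log2 scale, with 11.9, 14.3 and 30.8 CPM in WT and 14.4, 17.2 and 31.2 CPM in CD47- libraries (lowest, median and highest), and ATG16L1 fell by 0.44 and 0.28. ATG4C, at 18.8, 22.1 and 31.4 CPM in WT and 17.1, 25.5 and 30.8 CPM in CD47- libraries, fell by 0.38 in WT cells at 6 h and was at −0.22 (adjusted p = 0.127) in CD47- cells, while at 3 h it fell by 0.55 and 0.42. The call in CD47- cells at 3 h was lost without any one of 3 libraries, among them the one that stood apart, without which the value was −0.24. ATG4D rose in WT cells at 6 h (0.35) and in CD47- cells at 3 h (0.46), ATG5 rose in WT cells at 3 h (0.24), and ATG3 and ATG4B were not called. The call of ATG4D was lost without any one of 5 libraries (adjusted p up to 0.22) in WT cells, where it went down to 0.23, and without any one of 4 libraries (adjusted p up to 0.0944) in CD47- cells. That of ATG5 was lost without any one of 4 libraries (adjusted p up to 0.122), that of ATG4C at 6 h without the WT library of CD3+CD28 at 1 or 6 h (adjusted p up to 0.0863) and that of ATG4A in CD47- cells without any one of 3 libraries (adjusted p up to 0.22).

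LAMP1 rose with time in both lines. It had 42.0, 41.7, 46.9 and 45.4 CPM at 1 h, 62.3, 56.9 and 61.6 CPM at 3 h and 74.8, 76.7 and 67.9 CPM at 6 h in WT cells. In CD47- cells it had 42.2, 43.8, 44.8 and 41.2 CPM at 1 h, 59.1, 57.2 and 57.6 CPM at 3 h and 74.8, 68.9 and 68.3 CPM at 6 h. The time points did not overlap in either line, and the changes at 6 h were 0.71 (SE 0.0710, adjusted p = 1.97e-06) in WT and 0.71 (SE 0.0710, adjusted p = 1.71e-06) in CD47- cells. TFEB, at 3.45, 4.44 and 6.23 CPM in WT and 3.06, 5.76 and 7.74 CPM in CD47- libraries, rose at 3 h by 0.56 and 0.82 and at 6 h in CD47- cells by 0.57, with 0.12 (adjusted p = 0.604) in WT cells. The call of TFEB was lost without any one of 4 libraries (adjusted p up to 0.145) in WT cells at 3 h and without any one of 4 libraries (adjusted p up to 0.0918) in CD47- cells at 6 h. TFE3 was not called at either time point. Of the 44 lysosomal enzymes, membrane proteins and proton pump subunits, 26 were higher and 8 lower at 6 h in WT cells, where 25.7% of all genes were higher and 24.8% lower, and 21 were higher and 10 lower in CD47- cells, where 26.0% of all genes were higher and 27.0% lower.

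Beside shares of all genes of 50.5% called in WT (25.7% higher, 24.8% lower) and 53.0% in CD47- cells (26.0% higher, 27.0% lower), the other lists gave the following counts at 6 h. There were 6 of 19 fusion genes called in WT (4 higher, 2 lower) and 9 in CD47- cells (4 higher, 5 lower), 9 of 16 other autophagosome genes in WT (3 higher, 6 lower) and 11 in CD47- cells (4 higher, 7 lower), and 10 of 20 other cargo receptors in WT (2 higher, 8 lower) and 17 in CD47- cells (7 higher, 10 lower). Genes of mTORC1 and AMPK control gave 23 of 38 in WT (12 higher, 11 lower) and 24 in CD47- cells (12 higher, 12 lower). Of the 10 other transcriptional regulators, 8 were called in WT (1 higher, 7 lower) and 6 in CD47- cells, all 6 lower.

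The windows of 250 bases before the start are shown for BNIP3, one of the genes that fell most in both lines, and for LAMP1, which rose in both (RefSeq, GRCh38.p14). The RefSeq start of BNIP3 also lies downstream of the start in the other annotation, so the end of its window lies within that gene. The BNIP3 window is chr10:131981924-131982173 on the minus strand and the LAMP1 window chr13:113296989-113297238 on the plus strand, and capitals mark CACGTG, within which every ACGTG of these windows lies.
BNIP3: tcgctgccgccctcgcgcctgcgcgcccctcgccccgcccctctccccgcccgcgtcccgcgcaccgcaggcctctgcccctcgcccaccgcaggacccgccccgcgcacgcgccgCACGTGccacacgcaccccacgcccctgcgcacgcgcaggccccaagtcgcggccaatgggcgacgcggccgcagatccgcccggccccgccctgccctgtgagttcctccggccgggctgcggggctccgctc
LAMP1: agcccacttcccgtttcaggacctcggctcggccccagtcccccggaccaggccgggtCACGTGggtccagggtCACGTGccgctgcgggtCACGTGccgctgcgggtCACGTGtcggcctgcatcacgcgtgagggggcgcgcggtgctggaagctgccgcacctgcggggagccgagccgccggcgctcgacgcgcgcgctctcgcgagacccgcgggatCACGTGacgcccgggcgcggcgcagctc
BNIP3 held CACGTG at 1 place and LAMP1 at 5 places. The other genes of the 40 with CACGTG in their window were ATG3 and ATG14, each at 1 place. ATG3 was not called over time in either line, and ATG14 fell at 3 h in both lines and at 6 h in CD47- cells.

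The line by time comparison asked whether the change from 1 h differed between the lines. At 6 h, 6 of the 40 genes were called, against 16.6% of all genes. ATG101 was the only one whose change was more positive in CD47- cells. It had 41.3, 65.8, 69.2 and 51.5 CPM at 1 h and 34.8, 36.3 and 36.4 CPM at 6 h in WT cells, and 46.2, 44.8, 50.3 and 43.0 CPM at 1 h and 49.8, 45.5 and 48.4 CPM at 6 h in CD47- cells. ATG101, which stabilizes ATG13, thus fell in WT cells (−0.78, SE 0.113, adjusted p = 5.84e-05) and was not called in CD47- cells (0.054, SE 0.113, adjusted p = 0.715), and the difference in change was 0.83 (SE 0.159, adjusted p = 0.00322). At 6 h each CD47- library was above each WT library.

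LAMP2 gave the opposite picture. It had 117, 112, 109 and 125 CPM at 1 h and 111, 107 and 116 CPM at 6 h in WT cells, and 129, 139, 130.1 and 127 CPM at 1 h and 75.2, 74.6 and 81.7 CPM at 6 h in CD47- cells. It was not called in WT cells (−0.043, SE 0.0759, adjusted p = 0.665) and fell in CD47- cells (−0.78, SE 0.0766, adjusted p = 1.46e-06), a difference in change of −0.73 (SE 0.108, adjusted p = 5.21e-04). At 3 h it had fallen by 0.47 in CD47- cells and by 0.21 in WT cells, where the call was lost without any one of 14 libraries (adjusted p up to 0.162). LAMP2 was thus higher in CD47- cells at 1 h, by 0.18 (adjusted p = 0.0204) in the pairs of that time, and lower at 6 h, at −0.52 (adjusted p = 9.33e-07).

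NBR1 had 80.6, 86.8, 77.4 and 85.7 CPM at 1 h and 64.9, 62.2 and 61.4 CPM at 6 h in WT cells, and 125, 135, 124 and 131 CPM at 1 h and 61.2, 60.3 and 59.5 CPM at 6 h in CD47- cells. Its higher level in CD47- cells at 1 h was no longer present at 6 h, and the difference in change was −0.70 (SE 0.118, adjusted p = 0.00142). BNIP3L fell in both lines and more in CD47- cells, with a difference of −0.49 (SE 0.116, adjusted p = 0.012). GABARAPL1 lay between 25.2 and 28.8 CPM at 1 h and between 9.28 and 11.4 CPM at 6 h in CD47- cells, against between 12.4 and 14.8 and between 7.07 and 8.55 CPM in WT cells. It also fell more in CD47- cells, with a difference of −0.60 (SE 0.154, adjusted p = 0.0181). ATG12 fell in CD47- cells (−0.41) and was not called in WT cells (−0.041), with a difference of −0.37 (SE 0.107, adjusted p = 0.0323). When each library was left out in turn, ATG101, LAMP2 and NBR1 were called without any one of the 20, while ATG12 was lost without any one of 12 of them (adjusted p up to 0.146), among them each library at 6 h. BNIP3L was lost without the WT library of CD3+CD28+TSP1 at 1 h or the CD47- library of TSP1 at 6 h (adjusted p up to 0.0619), and GABARAPL1 without either of these, the WT library of TSP1 at 1 h or that of CD3+CD28+TSP1 at 6 h (adjusted p up to 0.0921). Without the CD47- library of CD3+CD28+TSP1 at 3 h, 8 genes were called, against 26.1% of all genes, and the 6 were among them.

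**Figure D5:**
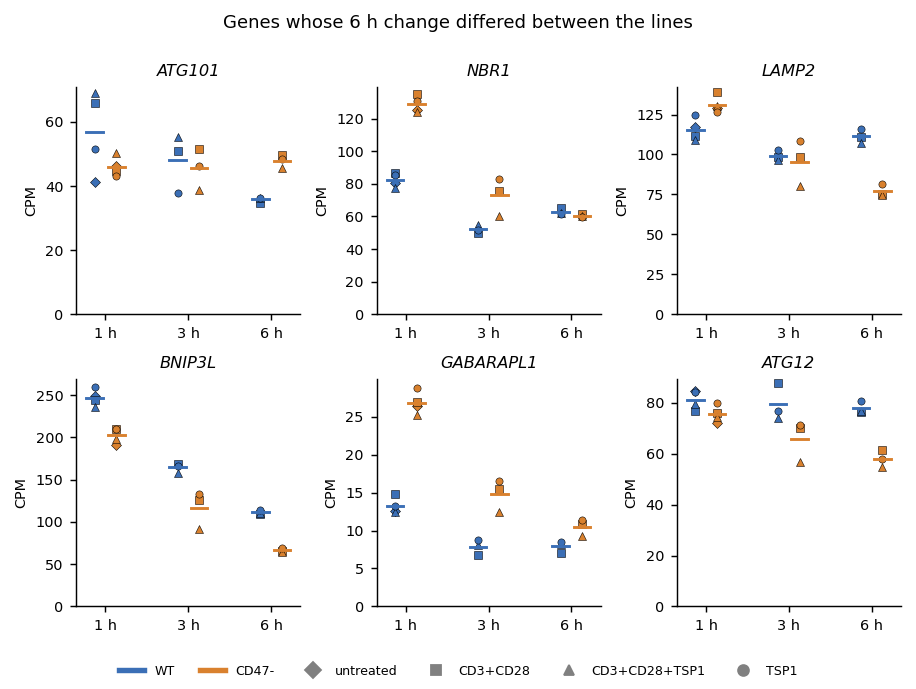
CPM of ATG101, NBR1, LAMP2, BNIP3L, GABARAPL1 and ATG12 in each of the 20 libraries by time point, with WT in blue, CD47- in orange, the treatment as the symbol and the mean of a time point as a bar. At 6 h the lines lie close together for NBR1 and apart for ATG101 and LAMP2, in opposite directions.

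At 3 h, 1 of the 40 genes was called for the line by time comparison, against 4.28% of all genes. It was ATG2A, with a difference in change of 0.83 (SE 0.180, adjusted p = 0.023). ATG2A had 10.6, 11.4, 14.9 and 11.1 CPM at 1 h and 8.52, 7.85 and 9.08 CPM at 3 h in WT cells, and 18.7, 11.9, 14.9 and 10.6 CPM at 1 h and 15.3, 18.1 and 12.3 CPM at 3 h in CD47- cells, with the highest of these 3 in the library that stood apart. The call held without that library, where 6.50% of all genes were called, and was lost without any one of 5 others (adjusted p up to 0.0825), which were the WT libraries of CD3+CD28+TSP1 at 1 and 3 h and the CD47- libraries of CD3+CD28 at 1 and 3 h and of TSP1 at 1 h. ULK1 rose in CD47- cells at 3 h (0.94, SE 0.194, adjusted p = 0.00202), with 30.9, 39.6 and 22.4 CPM against 23.4, 15.8, 19.6 and 12.7 CPM at 1 h, where the highest value was again that of the library that stood apart, and without that library the change was 0.85 and still called. In WT cells ULK1 was at 0.055 (adjusted p = 0.859), and the difference in change between the lines was not called (0.88, adjusted p = 0.0897). Within time points ULK1 was higher in CD47- cells in the 3 pairs at 3 h, by 0.87 (adjusted p = 0.0148), or 0.52 (adjusted p = 0.0293) in the 2 pairs without that library, and lower in the 3 pairs at 6 h, at −0.58 (adjusted p = 9.37e-04). For ULK1 the line by time comparison at 6 h was not called either.

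The last comparisons concerned the treatments, with the time points as repeats. They asked whether TSP1 changed the response to activation and whether activation itself moved these genes. No autophagy gene was called by edgeR in any of the 6 contrasts. For CD3+CD28+TSP1 against TSP1, 0.0919% of all genes were called in WT cells and 0% in CD47- cells, and for CD3+CD28+TSP1 against CD3+CD28 and for CD3+CD28 against untreated, 0% were called in either line. DESeq2 and limma voom also called 0 of the 40 in each of the 6, against at most 0.331% of all genes with DESeq2 and at most 0.171% with limma voom. For CD3+CD28+TSP1 against TSP1, 2 genes (ATG101 and MAP1LC3B) had an unadjusted p under 0.05 in WT, against 5.00% of all genes, and 10 in CD47- cells, against 16.1%. For CD3+CD28+TSP1 against CD3+CD28 there were 0 in WT, against 2.24% of all genes, and 2 (ATG12 and BNIP3L) in CD47- cells, against 10.8%. For CD3+CD28 against untreated cells there was 1 in each line, ATG101 in WT, against 8.32%, and ATG2A in CD47- cells, against 4.02%. Contrasts of a line share their CD3+CD28 or CD3+CD28+TSP1 libraries. For CD3+CD28+TSP1 against TSP1 in CD47- cells the log2 fold changes ran from −0.29 for GABARAPL1 to 0.54 for ULK1, with a smallest adjusted p of 0.283. For CD3+CD28+TSP1 against CD3+CD28 they ran from −0.20 (WIPI1) to 0.38 (ULK1) in WT and from −0.22 (ATG4A) to 0.28 (ULK1) in CD47- cells. The comparison with untreated cells rests on 1 untreated library per line, so its p-values take their spread from the other libraries. ULK2, which had 1 to 16 counts in a WT library, is set aside here. Among the other genes the largest differences were 0.63 for ATG101 in WT cells and −0.61 for ATG2A in CD47- cells.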

How the data were processed

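Per the labels and the study's methods, the authors used Cutadapt 1.18 for trimming and STAR 2.4.2a for alignment to GRCh38, and deposited RSEM 1.3.3 expected counts per gene and per isoform on GENCODE 36. The deposited expected counts are not normalized, 82.3% of the values above 0 are whole, and they were rounded here. The strand setting is not given in the sources used here, so reads of a gene and an overlapping antisense gene could be mixed. In each table, 2 columns of no sample were not used. The genes were kept by edgeR's filterByExpr by line (minimum count 10, minimum total 15) and scaled by TMM, and edgeR 4.0.16 quasi-likelihood tests (R 4.3.3) were adjusted by Benjamini-Hochberg over all genes, with a threshold of 0.05. CPM used these scaled totals, and 0.5 was added to CPM before the log2 difference of a pair was taken. The lines were compared over all 20 libraries with no other term. Time and treatment contrasts came from 1 fit in which each treatment of a line had its own level and each line its own terms for 3 and 6 h. TPM was computed from isoform counts and lengths of GENCODE 44, which also gave the positions, and 25.6% of PIK3C3 counts and 10.6% of ATG2A counts lay on isoforms without a length. Isoform usage was tested with edgeR's diffSpliceDGE.

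Libraries of the 2 lines were paired by their labels for treatment and time, and the deviations from the line means correlated within each of the 10 pairs, from 0.126 to 0.602. The autophagy genes and the lists of other genes (other autophagosome genes, other cargo receptors, fusion with lysosomes, lysosomal enzymes, membrane proteins and proton pump, mTORC1 and AMPK control, transcriptional regulators) and of cell markers were chosen with earlier results of these data known, and not every B cell marker is reported here. Levels over the libraries are given for genes called with an absolute log2 fold change of at least 0.5, and up to 3 genes higher and 3 lower are named for each other list. The alternatives were DESeq2 1.42.0, upper-quartile factors, limma 3.58.1 voom after quantile normalization, no filter, at least 1 CPM in every library, the replicate block, a time term, subsets of the pairs, the model without untreated libraries or with 1 line alone, and each library left out. The line by 3 h comparison was added after the data had been seen. On data simulated for 15770 genes, the line comparison by edgeR recovered 60% of the genes changed 1.5-fold and 80% of those changed 2-fold, with 3.6% false calls. False calls were 17.6% with DESeq2 and 5.4% with limma voom. For 6 h against 1 h in WT, simulated for 16040 genes, edgeR recovered 52% and 66%, with 8.8% false calls, against 12.9% with DESeq2 and 9.8% with limma voom. In these simulations a small set of genes changed, all others had no effect, and counts were drawn independently for each library. The line simulation held no differences between times or treatments. Far more genes were called in the measured data, so these rates need not hold for the results here.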

Additional observations from a re-analysis of the deposited data

Results flagged for a closer look

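The ATG3 level of the CD47- library of CD3+CD28+TSP1 at 3 h, 54.0 CPM, lay far below the other 9 CD47- libraries, of which the lowest had 65.8 CPM. It was the only such gap among the 80 sets of 10 libraries examined (40 genes in 2 lines). The cutoff flags about 1 in 20 sets, or 4, by chance where values follow 1 normal distribution. These sets mix time points and treatments, so that number need not hold here. This is the library that stood apart in depth, scaling and correlation, and the part these play in the value was not tested.

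The change from 1 to 6 h differed between the lines, by the interaction term of the model, for ATG101 (difference 0.83), ATG12 (−0.37), GABARAPL1 (−0.60), NBR1 (−0.70), BNIP3L (−0.49) and LAMP2 (−0.73). The change from 1 to 3 h differed for ATG2A (0.83). These are differences of log2 fold changes, CD47- minus WT.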

How the results depend on the processing

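The direction of the 11 differences between the lines was the same in all alternatives run, and ULK2 and OPTN were called in all of them, although ULK2 was not tested under the filter of at least 1 CPM in every library. Where the filter by line was used, ULK2 passed it through the CD47- libraries alone. The number called between the lines was 27 with the replicate block, 26 with the block of the 9 pairs without the library that stood apart (a subset chosen after seeing the data), 28 with a time term, 18 in the 4 pairs at 1 h, 24 in the 3 pairs at 6 h, 5 in the 6 activated pairs and 2 in the 4 unactivated pairs, where fewer libraries were fitted. The block was fitted only between the lines, where it added the calls given above, removed none of the 11 and none in the other lists, which went from 8 to 11 (fusion), 21 to 28 (lysosomal), 13 to 23 (mTORC1 and AMPK control), 9 to 10 (other autophagosome genes), 9 to 11 (other cargo receptors) and 5 to 7 (transcriptional regulators) (an alternative added after seeing the data). Isoforms went from 17 to 26, of which 16 were shared. For line by 3 h, DESeq2 and the fit with no low-count filter called 2 genes (ULK1 beside ATG2A), against 6.55% and 3.40% of all genes, and leaving out 1 library gave 0 to 2, against 1.03% to 6.50%. For line by 6 h, leaving out 1 library gave 3 to 8, against 8.87% to 26.1%. With no low-count filter ULK1 was called for CD3+CD28+TSP1 against TSP1 in CD47- cells and ATG101 for CD3+CD28 against untreated in WT cells, 1 gene each, against 1.31% and 0.659% of all genes. Leaving out 1 library gave 0 to 1 for the latter, where ATG101 was called without the CD47- library of CD3+CD28+TSP1 at 3 h, against 1.38% of all genes. Limma voom called 1 gene, ATG3, for isoform usage, against 11.4%. The cause of these changes was not tested.

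Genes not called between the lines reversed as follows (log2 fold change). ATG101 was at 0.025 with voom, 0.16 in unactivated pairs, 0.43 in pairs at 6 h and 0.047 with the block of 9 pairs, and ATG4B at 0.0029 with voom, 0.010 with upper-quartile factors, 0.023 in unactivated pairs and 0.020 in pairs at 1 h. PIK3R4 was at −0.0024 with the block, −0.0027 with a time term, −0.0096 in activated pairs and −0.079 in pairs at 3 h, and ATG16L1 at −0.022 in activated pairs and −0.13 in pairs at 3 h. In pairs at 1 h, ATG4C was at −0.036, ATG5 at 0.017 (0.032 in unactivated pairs), LAMP2 at 0.18 and SQSTM1 at 0.0073. In the 2 pairs at 3 h without the library that stood apart, AMBRA1 was at −0.010, ATG101 at 0.14, ATG16L1 at −0.064, ATG4B at 0.041, LAMP2 at 0.042 and PIK3R4 at −0.00050. In the 3 pairs at 3 h, BECN1 was at −0.014 and GABARAP at −0.035, and in pairs at 6 h NBR1 was at −0.047 and ULK1 at −0.58. Over the libraries left out in turn, ATG101 ran from −0.086 to 0.036, ATG4B from −0.055 to 0.024, PIK3R4 from −0.025 to 0.049, LAMP1 from −0.10 to 0.014 and ATG16L1 from −0.0022 to 0.073. Over time, 18 of the 25 genes called in WT and 21 of the 26 in CD47- cells at 6 h, and 14 of 22 and 18 of 25 at 3 h, were called in all alternatives. Calls lost when a single library was left out were those of ATG2B, ATG4A, ATG4C, ATG4D, ATG9A and BECN1 in WT and ATG2A, ATG4A, GABARAP, TFEB and WIPI2 in CD47- cells at 6 h, and of ATG101, ATG14, ATG5, ATG7, LAMP2, OPTN, PIK3R4 and TFEB in WT and ATG12, ATG16L1, ATG2B, ATG4C, ATG4D, ATG7 and GABARAPL2 in CD47- cells at 3 h. Depth limits ULK2 in WT cells, where a library gave 1 to 16 counts, and 1 library per condition limits the treatment contrasts.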
